A study of Mus musculus with 6 samples.

Results

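This account covers 34 mouse genes of the interferon response and of MHC class I antigen presentation. They were chosen by gene symbol, and all 34 were among the 24421 genes of the count tables. RNA-seq was done on 6 libraries of cultured oligodendrocyte progenitor cells (OPCs), the dividing precursors of the myelin-forming cells of the brain. The 3 KO libraries were Prrc2bf/f; Olig2-Cre, in which the Olig2 promoter drives Cre in Olig2-expressing cells, and the 3 control libraries were Prrc2bf/f without Cre. All 6 shared the floxed Prrc2b alleles, the C57BL/6J strain, cortex of postnatal day 4 as source, panning on GalC and then O4 antibody, and a proliferation medium with PDGF-AA, bFGF, CNTF, NT3 and forskolin. No Cre-only control was among the samples, so effects of Cre and of Prrc2b loss cannot be told apart. The series' design text names brain tissue in place of cultured cells. The labels do not say that replicates came from separate animals, so p-values here measure only the spread between these libraries. In fits with the replicate number as a block, they measure only the spread of the KO to control difference over the 3 same-numbered pairs.

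Type I interferons, of which interferon beta is the form most cells can make, bind the receptor chains IFNAR1 and IFNAR2 and act through JAK kinases. A complex that contains STAT2 and IRF9 then binds a repeated GAAA element and turns on a broad antiviral programme. The programme includes effectors that block viral RNA and its translation, RNA sensors and IRF7 that feed back on interferon production, and the class I molecules that show peptides to CD8+ T cells. In brain, microglia and endothelial cells as well as glial progenitors can run it.

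Promoters are shown for 6 genes that the results below turn on, because they differ in matches to GAAANNGAAA. That is the form searched here of the repeated GAAA element. Each line gives the 250 bases before the gene's start from RefSeq (GRCm38.p6), in the direction of transcription. Capitals mark GAAANNGAAA or its reverse complement, where overlapping matches run together. The GENCODE genes start earlier than the RefSeq starts for 4 of the 6, so that the last 57 bases of the Irf7 stretch, 61 of the Gbp2 stretch, 18 of the Ifit1 stretch and 1 of the B2m stretch lie within the GENCODE gene, the Gbp2 match among them.
Ifit1 (chr19:34640639-34640888, plus strand): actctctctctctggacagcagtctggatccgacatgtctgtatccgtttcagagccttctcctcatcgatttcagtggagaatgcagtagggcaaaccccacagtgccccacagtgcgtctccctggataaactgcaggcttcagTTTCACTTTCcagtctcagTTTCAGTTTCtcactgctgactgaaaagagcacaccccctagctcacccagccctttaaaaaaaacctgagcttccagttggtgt
Isg15 (chr4:156200819-156201068, minus strand): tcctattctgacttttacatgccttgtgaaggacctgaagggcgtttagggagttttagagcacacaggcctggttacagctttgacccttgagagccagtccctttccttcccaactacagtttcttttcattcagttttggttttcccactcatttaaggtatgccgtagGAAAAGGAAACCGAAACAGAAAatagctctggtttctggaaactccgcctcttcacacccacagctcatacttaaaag
Rsad2 (chr12:26456453-26456702, minus strand): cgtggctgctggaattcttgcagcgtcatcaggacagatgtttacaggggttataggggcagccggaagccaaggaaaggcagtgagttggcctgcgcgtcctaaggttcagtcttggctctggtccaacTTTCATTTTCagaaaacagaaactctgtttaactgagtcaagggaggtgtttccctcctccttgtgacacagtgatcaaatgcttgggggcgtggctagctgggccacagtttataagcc
Gbp2 (chr3:142620413-142620662, plus strand): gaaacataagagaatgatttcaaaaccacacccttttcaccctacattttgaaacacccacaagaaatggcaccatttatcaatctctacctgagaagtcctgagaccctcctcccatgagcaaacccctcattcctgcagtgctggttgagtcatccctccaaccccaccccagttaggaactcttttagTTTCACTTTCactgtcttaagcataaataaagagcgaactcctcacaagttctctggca
B2m (chr2:122147437-122147686, plus strand): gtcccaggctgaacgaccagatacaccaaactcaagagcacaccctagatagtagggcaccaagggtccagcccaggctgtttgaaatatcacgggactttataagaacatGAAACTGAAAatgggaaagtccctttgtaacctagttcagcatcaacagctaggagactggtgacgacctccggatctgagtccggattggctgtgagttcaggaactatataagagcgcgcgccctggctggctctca
Irf7 (chr7:141266425-141266674, minus strand): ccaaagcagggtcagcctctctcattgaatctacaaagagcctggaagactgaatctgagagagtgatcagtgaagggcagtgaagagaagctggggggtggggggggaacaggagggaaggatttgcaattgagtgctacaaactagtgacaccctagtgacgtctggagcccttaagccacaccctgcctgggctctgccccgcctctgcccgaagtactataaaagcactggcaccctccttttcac
The Ifit1 stretch held 2 matches and the Isg15 stretch 3 that overlap. Rsad2, Gbp2 and B2m had 1 each, and Irf7 had none of these letters in its stretch. Over windows of 300 bases, 250 before and 50 after the start, 16 of the 28 genes of the set with a RefSeq window (57.1%) held the motif on either strand. The share over all 27025 symbols was 3.99%. These matches describe the sequence and were not tested as binding sites. Bases outside the windows and other forms of the element were not searched, so a stretch without a match, such as that of Irf7, does not show that the gene lacks the element.

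Libraries held 26015604 to 28114968 gene counts, and 15906 genes passed the expression filter. Of the 34 genes of the set, 33 passed it, all but Ifi44. Levels are in CPM, gene counts relative to the library's total gene count, and values by library stand in the order 1, 2 and 3 in each group. Prrc2b, the floxed gene, had 653, 826 and 771 CPM in KO libraries, against 928, 1079.9 and 931 CPM in control libraries, so the groups did not overlap. The KO level was 0.750 of the control level in the fit with the block, and gene-level counts do not separate the deleted stretch from the rest of the transcript. Its log2 fold change was -0.41 (SE 0.13, adjusted p = 1.00, edgeR quasi-likelihood test), and with the replicate number as a block it was -0.41 (SE 0.06, adjusted p = 0.00688). The labels number the libraries 1 to 3 in both groups, and same-numbered libraries deviated together. Both fits are therefore given where they differ.

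The 13 OPC markers summed to 5954, 3036 and 4607 CPM in KO libraries, against 5089, 2962 and 4447 CPM in control libraries. Markers of other cell types were also present. The 15 neuron markers summed to 2969, 4571 and 3149 CPM in KO libraries, against 3548, 4911 and 3672 CPM in control libraries, above the OPC sums in library 2 of both groups. Astrocyte sums ran between 2011 and 3679 CPM in KO libraries and between 1687 and 3098 CPM in control libraries, and choroid plexus and ependymal sums between 925 and 3026 CPM in KO libraries and between 438 and 2057 CPM in control libraries. The 20 markers of microglia and macrophages summed to 52.0, 646 and 488 CPM in KO libraries, against 54.0, 640 and 421 CPM in control libraries. Libraries numbered 1 were thus the lowest of each group, and 0 of the 20 markers was at 0 in any library. Csf1r, the receptor on which microglia depend, had 3.77, 108 and 100.4 CPM in KO libraries, against 4.81, 109 and 88.6 CPM in control libraries. The 20 endothelial markers summed to 293, 143 and 691 CPM in KO libraries, against 186, 95.6 and 281 CPM in control libraries, again with 0 of 20 at 0 in any library. In bulk libraries, more cells of a type and more RNA per cell cannot be told apart. The part of these cells in the results below was not tested.

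Transcripts of the set were on the higher side in the KO libraries, yet 0 of the 33 tested genes passed the test without the block. All genes gave the same share, 0.0% called. At an unadjusted p under 0.05 edgeR listed 0 of the 33, against 1.72% of all genes, and limma-voom (0.0% of all genes) and DESeq2 (0.126%) called 0 of the 33. The median log2 fold change of the 33 was 0.38, against 0.00 over all genes tested, and 32 of the 33 were above 0, against 50.5% of all genes (50.6% with the block). It was 0.02 without KO library 2, 0.11 without control library 1, 0.65 without KO library 1 and 1.00 without control library 2. Single libraries thus set its size in the fit without the block, where the same-numbered library of the other group stayed in. With the block the median was 0.40. It was 0.34, 0.46 (32 genes tested) and 0.33 when both libraries numbered 1, 2 or 3 were left out. With the block, 2 of the 33 rose, Irf7 and B2m, and 0 fell, where 1.57% of all genes rose, 2.23% fell and 3.8% changed in either direction. A further 11 of the 33 had an unadjusted p under 0.05, so that 13 did, against 18.2% of all genes.
The count of 2 moved with the libraries and settings, as did the share over all genes. Without the pair numbered 1 it was 5 (Ifit1, Ifit3, Irf7, Rsad2 and Gbp2), where 2.79% of all genes were called. Without pair 2 it was 1 (B2m), at 3.25% of all genes, and without pair 3 it was 0, at 1.09%. Limma-voom with the block, which called 4.48% of all genes, called 5 of the 33 (Ifit3, Irf7, Rsad2, Parp14 and B2m). A correction for GC content left 0, at 2.14% of all genes, while the median log2 fold change with the block was 0.38 with the correction and 0.40 without it and 13 genes had an unadjusted p under 0.05.

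**Figure D1:**
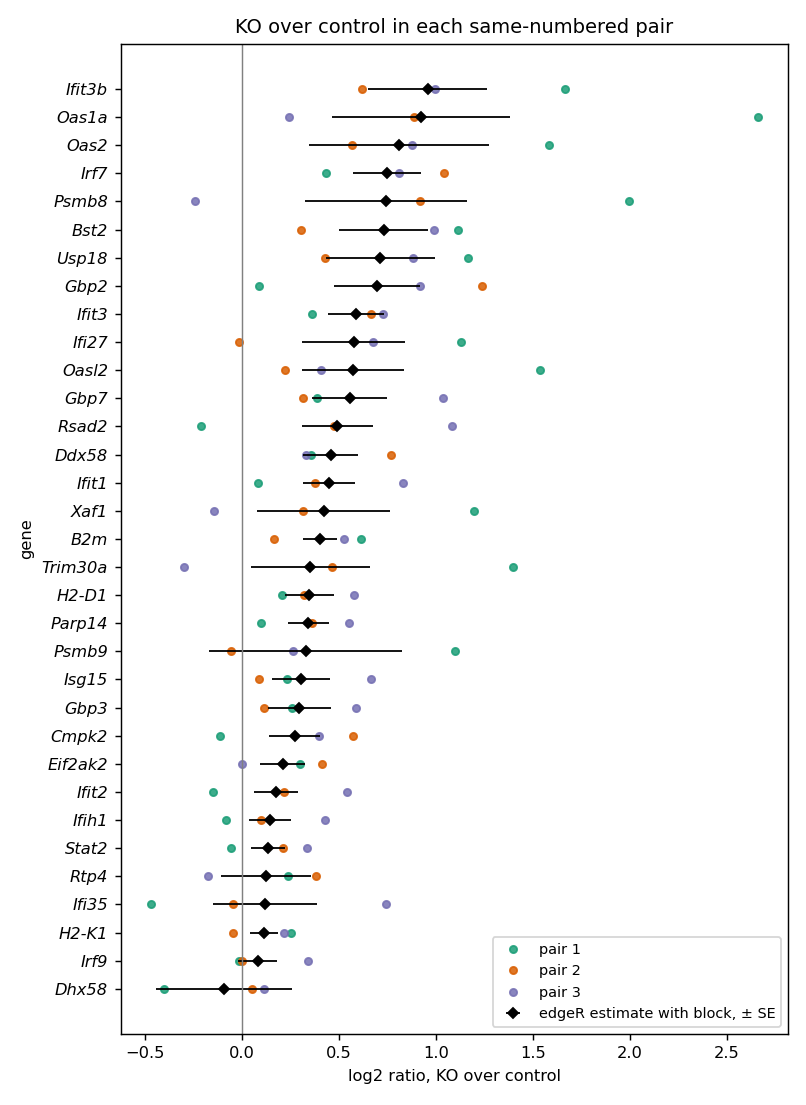
Log2 ratio of CPM, KO over control, in each same-numbered pair of libraries (coloured points) and the edgeR estimate with the replicate block (black diamond, bar ± SE), for the 33 tested genes. Most points lie right of 0, and Dhx58 at the bottom has the only estimate left of it, at -0.09.

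Within same-numbered pairs the KO library was higher for 26, 29 and 30 of the 34 genes in pairs 1, 2 and 3. The share over all genes was 52.9%, 58.2% and 53.4%. The median KO over control ratio was 1.23, 1.27 and 1.45 in those pairs, where the median over all genes tested was 1.01, 1.03 and 1.01. Higher in KO in all 3 pairs were 19 of the 34 genes, 18 of them among the 33 tested, against 23.9% of all genes tested. Lower in KO in all 3 pairs were 0 of the 34, against 16.0%. Genes of one programme share their regulation and their cells of origin, so they are not independent counts. Groups that did not overlap were seen for 0 of the 33 tested genes, against 6.11% of all genes tested.

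A further pattern ran along the replicate number. Library 2 was the highest of its group in both groups for 22 of the 34 genes, against 21.2% of all genes tested, and library 1 was the lowest in both for 23 of the 34, against 20.5%. The median spread over the 3 numbers was 3.36-fold for the tested genes of the set and 1.36-fold for all genes. On the log2 scale that spread was 1.75 for the set and 0.44 for all genes, and the median difference between the group means, sign left aside, was 0.43 for the set and 0.11 for all genes, so both were larger in the set. Spread over numbers exceeded the group difference for 31 of the 33 genes (93.9%), close to the 90.3% of all genes. Of the 20 microglia markers, 17 were likewise highest in library 2 of both groups and 19 lowest in library 1 of both, and of the 15 neuron markers 9 were highest in library 2 and 10 lowest in library 1 of both. What a replicate number marks is not given in the labels.

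**Figure D2:**
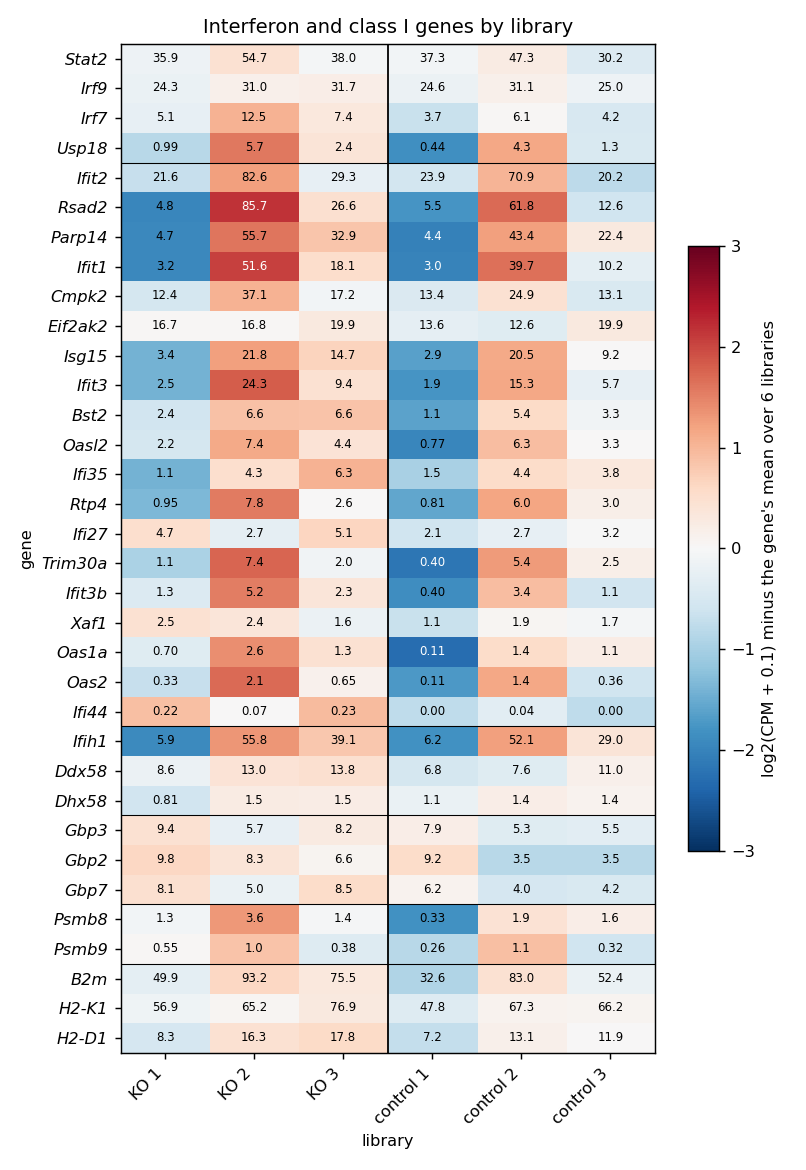
Level of each of the 34 genes in each library, KO libraries left of control libraries. Cells print CPM, colours show log2(CPM + 0.1) minus the gene's mean over the 6 libraries, and lines part the roles. The columns of KO 2 and control 2 are red for most antiviral genes and those of KO 1 and control 1 blue, while the guanylate-binding proteins run the other way.

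Interferon ligands were scarce. Of 15 ligand genes listed, 7 had no count in any library and 1, Ifnb1, which encodes interferon beta, passed the filter. Ifnb1 had 0.0733, 0.821 and 4.31 CPM in KO libraries, against 0.0735, 1.30 and 2.95 CPM in control libraries. Its highest library was number 3 in both groups, not number 2 as for most effectors. The groups overlapped, and the fit with the block put it at 0.00 on the log2 scale (SE 0.59, adjusted p = 0.999, edgeR). Ifng, the type II interferon made mainly by lymphocytes, had 7, 0 and 4 counts in KO libraries, against 0 counts in each control library. Of 11 markers of lymphocytes and blood 2 were at 0 in every library and 7 in at least 1, with sums of 2.60, 4.32 and 2.69 CPM in KO libraries, against 3.75, 3.89 and 1.89 CPM in control libraries.

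**Figure D3:**
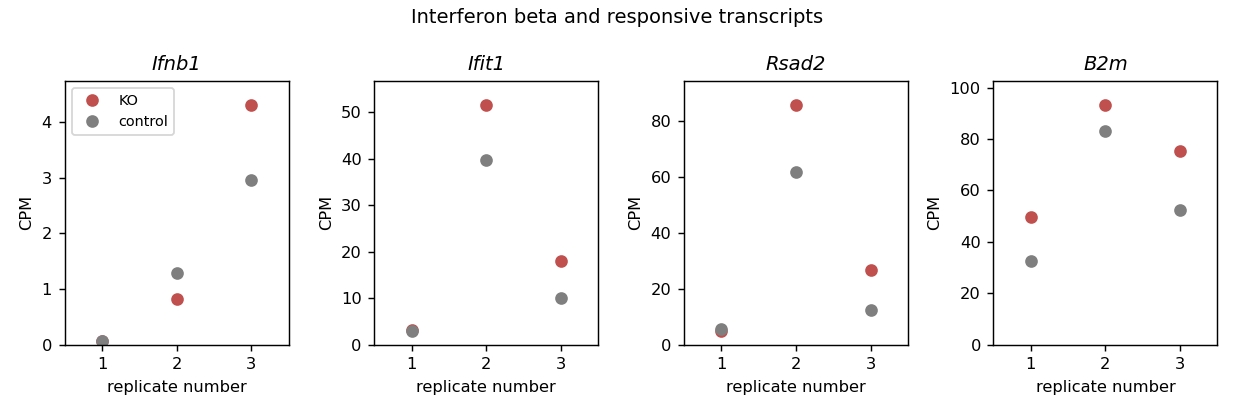
CPM of Ifnb1, Ifit1, Rsad2 and B2m against the replicate number, with KO libraries in red and control libraries in grey, 1 point per library. Ifnb1 peaks at number 3 in both groups, and the other genes peak at number 2.

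Receptors and signalling genes lay on both sides of 0. Of 20 tested, with the block 1 rose and 1 fell, where 1.57% of all genes rose and 2.23% fell. An unadjusted p under 0.05 was seen for 3 of the 20, against 18.2% of all genes. The log2 fold changes ran between -0.44 and 0.51 with a median of 0.02. Ifnar1, a receptor chain, had 112, 126 and 139.6 CPM in KO libraries, against 111, 121 and 132 CPM in control libraries. Irf1, a transcription factor induced by both interferon types, had 25.5, 20.6 and 53.2 CPM in KO libraries, against 21.5, 14.7 and 29.7 CPM in control libraries. Each KO library was above its same-numbered control, and with the block Irf1 rose by 0.51 on the log2 scale (SE 0.12, adjusted p = 0.0483, edgeR). That call was lost without pair 2 (0.53, adjusted p = 0.0647) and with the GC correction (0.51, adjusted p = 0.0628) at about the same size, and without pair 3 at a smaller one (0.34, adjusted p = 0.287). Irf2bp1, a corepressor that binds IRF2, had 73.7, 72.2 and 79.4 CPM in KO libraries, against 95.0, 90.2 and 95.9 CPM in control libraries. Its groups did not overlap, and with the block it fell by 0.35 on the log2 scale (SE 0.05, adjusted p = 0.0118, edgeR), a call lost with the GC correction, where the value was -0.20 (adjusted p = 0.0906). Socs1, an inhibitor of JAK kinases, had 1.80, 1.68 and 1.69 CPM in KO libraries, against 2.42, 2.08 and 2.42 CPM in control libraries. Its groups did not overlap either, at adjusted p = 0.456 with the block (edgeR). Irf2bp1 and Socs1 were 2 of the 21 listed, where 6.11% of all genes tested had groups without overlap.

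Among the 4 regulators of the set, Irf7 was called and Stat2, Irf9 and Usp18 were not. Irf7, the factor that amplifies type I interferon production, had 5.06, 12.5 and 7.42 CPM in KO libraries, against 3.75, 6.08 and 4.23 CPM in control libraries. Each KO library exceeded its same-numbered control, although KO library 1 was below control library 2. With the block Irf7 rose by 0.75 on the log2 scale (SE 0.18, adjusted p = 0.0494, edgeR quasi-likelihood test with Benjamini-Hochberg adjustment). Over 9 other blocked fits its adjusted p ran between 0.0157 and 0.189 and 3 called it. It was lost without pair 2 (adjusted p = 0.188), without pair 3 (0.189), with DESeq2 size factors (0.0503), with library totals (0.0506), by DESeq2 (0.0587) and with the GC correction (0.0589), at log2 fold changes between 0.61 and 0.78. Irf7 lies at chr7:141262706-141266481 on the minus strand (GRCm38). Without the block the value was 0.80 (SE 0.40, adjusted p = 1.00). Irf7 shares 45 exonic bases with Phrf1 on the opposite strand, and no source used here states whether the counting was by strand. Of the 34 genes, 12 share exonic bases with another gene.

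Stat2, a subunit of the DNA-binding complex, had 35.9, 54.7 and 38.0 CPM in KO libraries, against 37.3, 47.3 and 30.2 CPM in control libraries. Irf9, which gives that complex its DNA contact, had 24.3, 31.0 and 31.7 CPM in KO libraries, against 24.6, 31.1 and 25.0 CPM in control libraries. Usp18, which removes ISG15 from proteins and damps the receptor, had 0.989, 5.74 and 2.42 CPM in KO libraries, against 0.441, 4.26 and 1.32 CPM in control libraries. The groups overlapped for all 3. On the log2 scale the spread over the replicate numbers was 0.59 for Stat2, 0.34 for Irf9 and 2.72 for Usp18, which was highest in library 2 of each group.

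Antiviral effectors formed the largest role, with 19 genes. Their summed level was 86.7, 424 and 201 CPM in KO libraries, against 77.1, 327 and 137 CPM in control libraries. The KO sum was the higher in each pair, at ratios of 1.12, 1.30 and 1.47, but library 2 exceeded library 1 by 4.89-fold in KO and 4.24-fold in control. With the block 0 of the 18 tested effectors passed the edgeR test, against 3.8% of all genes. An unadjusted p under 0.05 was seen for 6 of the 18, against 18.2% of all genes. The median log2 fold change of the 18 was 0.44.

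**Figure D4:**
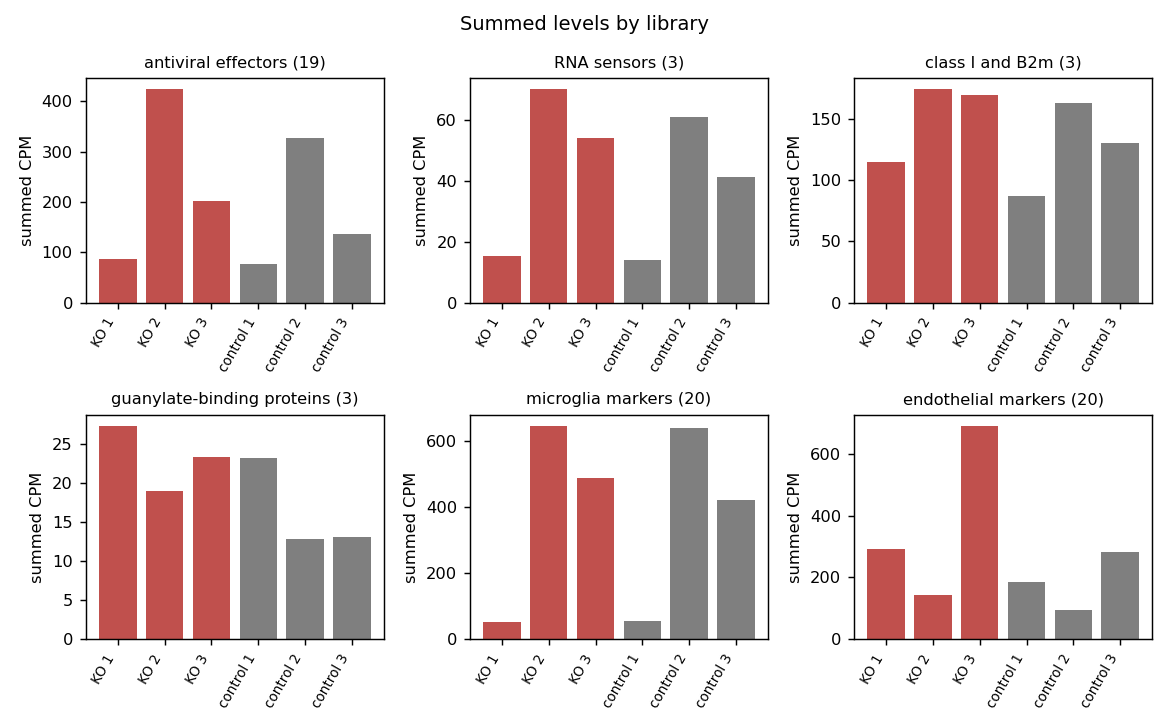
Summed CPM per library of 4 roles of the set and of microglia and endothelial markers, with the number of genes in brackets. Red bars are KO libraries and grey bars control libraries. Effector, sensor and microglia sums share low values in both libraries numbered 1, and endothelial sums are highest in KO 3.

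The 4 effectors with the highest mean CPM were Ifit2, Rsad2, Parp14 and Ifit1. Ifit2, which acts on viral and cellular RNA, had 21.6, 82.6 and 29.3 CPM in KO libraries, against 23.9, 70.9 and 20.2 CPM in control libraries. In pair 1 it was lower in KO, and the other pairs were higher in KO. Rsad2, viperin, which makes a chain-terminating nucleotide, had 4.80, 85.7 and 26.6 CPM in KO libraries, against 5.55, 61.8 and 12.6 CPM in control libraries. The order of libraries was the same within both groups, with number 2 highest, and pair 1 again was lower in KO. Its log2 fold change with the block was 0.49 (SE 0.18, adjusted p = 0.185, edgeR), without a call. It was 0.73 without pair 1 and passed (adjusted p = 0.0121), and it was 0.21 without pair 3 (adjusted p = 0.596). Limma-voom with the block called it (adjusted p = 0.0496) and DESeq2 with the block did not (0.745).
Parp14, an ADP-ribosyltransferase of the interferon response, had 4.73, 55.7 and 32.9 CPM in KO libraries, against 4.41, 43.4 and 22.4 CPM in control libraries. Ifit1, which binds RNA whose cap lacks methylation, had 3.19, 51.6 and 18.1 CPM in KO libraries, against 3.01, 39.7 and 10.2 CPM in control libraries. For both genes every KO library was above its same-numbered control and the groups overlapped. With the block their log2 fold changes were 0.34 (SE 0.10) for Parp14 and 0.45 (SE 0.14) for Ifit1, at adjusted p = 0.114 and 0.112 (edgeR).

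Ifit3, Isg15 and Cmpk2 were picked for description after their values were seen. Ifit3, which stabilises IFIT1, had 2.45, 24.3 and 9.38 CPM in KO libraries, against 1.91, 15.3 and 5.66 CPM in control libraries, every KO library above its same-numbered control. The fit with the block put it at 0.59 on the log2 scale (SE 0.14, adjusted p = 0.0555, edgeR). Ifit3 shares 18.6% of its 150-base stretches with other transcripts, mainly Ifit3b. Read pairs with several alignments were counted apart from the genes, so those from shared stretches may be missing from both. Isg15, the ubiquitin-like modifier, had 3.41, 21.8 and 14.7 CPM in KO libraries, against 2.90, 20.5 and 9.25 CPM in control libraries. Cmpk2, the mitochondrial nucleotide kinase next to Rsad2 in the genome, had 12.4, 37.1 and 17.2 CPM in KO libraries, against 13.4, 24.9 and 13.1 CPM in control libraries. Both were highest in library 2 of each group, and the groups overlapped.

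Ifi44, whose product is a cytoplasmic protein of unsettled function, was the 1 gene of the 34 with groups that did not overlap. The share over all genes tested was 6.11%. It had 6, 2 and 6 counts in KO libraries, against 0, 1 and 0 counts in control libraries. Summed over libraries the counts were 14 in KO and 1 in control, a ratio of 14.2 (95% exact interval 2.16 to 599, which covers counting error only). The interval makes no allowance for the gene having been picked because its groups did not overlap. These counts are too low for the filter, so no fitted value is given. The other 11 effectors included the RNA-activated kinase Eif2ak2, the tetherin Bst2, which holds budding virus at the cell surface, and the oligoadenylate synthetases Oas1a and Oas2. With the block their log2 fold changes lay between 0.12 (Ifi35) and 0.96 (Ifit3b), all with overlapping groups, and 6 of the 11 were higher in KO in every pair. Oas1a, an oligoadenylate synthetase, shares 32.4% of its 150-base stretches with other genes, mainly Oas1g, and its value is uncertain.

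The 3 cytosolic RNA sensors differed from each other. Ifih1, MDA5, which detects long double-stranded RNA, had 5.90, 55.8 and 39.1 CPM in KO libraries, against 6.24, 52.1 and 29.0 CPM in control libraries. It followed the effectors, with libraries 1 far below the others in both groups. Ddx58, RIG-I, which detects RNA ends carrying triphosphate, had 8.65, 13.0 and 13.8 CPM in KO libraries, against 6.76, 7.60 and 11.0 CPM in control libraries. Every KO library was above its same-numbered control, with a block log2 fold change of 0.46 (SE 0.14, adjusted p = 0.116, edgeR). Dhx58, LGP2, a regulator of the other sensors, had 0.806, 1.50 and 1.46 CPM in KO libraries, against 1.07, 1.45 and 1.35 CPM in control libraries. It was the only tested gene of the set with fold changes below 0, at -0.06 without the block and -0.09 with it (SE 0.38 and 0.35).

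Of 19 other sensors and adaptors, 0 passed the edgeR test with the block, against 3.8% of all genes. An unadjusted p under 0.05 was seen for 3 of the 19, against 18.2% of all genes, and the median log2 fold change was 0.07. Mavs, the adaptor of RIG-I and MDA5, had 13.2, 10.5 and 12.9 CPM in KO libraries, against 10.3, 9.27 and 9.67 CPM in control libraries. Its groups did not overlap, at adjusted p = 0.268 with the block (edgeR). That held for 1 of the 19, against 6.11% of all genes tested. Tlr7, the endosomal sensor of single-stranded RNA, was chosen after its values were seen. It had 1.03, 16.5 and 5.80 CPM in KO libraries, against 1.14, 19.9 and 5.98 CPM in control libraries, which is the order of the microglia sums in control libraries and in KO libraries alike.

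The 3 guanylate-binding proteins of the set, Gbp2, Gbp3 and Gbp7, GTPases that act on membranes of intracellular pathogens, were ordered differently from the effectors. Their summed level was 27.4, 19.1 and 23.4 CPM in KO libraries, against 23.3, 12.8 and 13.2 CPM in control libraries. Library 1 was the highest of each group, where it was the lowest for effectors. Gbp2 had 9.82, 8.31 and 6.65 CPM in KO libraries, against 9.22, 3.52 and 3.52 CPM in control libraries. Gbp3 had 9.42, 5.71 and 8.23 CPM in KO libraries, against 7.86, 5.26 and 5.48 CPM in control libraries. Gbp7 had 8.13, 5.03 and 8.53 CPM in KO libraries, against 6.21, 4.04 and 4.16 CPM in control libraries.
All 3 were higher in KO in every pair, and control library 1 lay within the KO range for each. With the block Gbp2 had a log2 fold change of 0.70 (SE 0.22, adjusted p = 0.126, edgeR). It was 1.05 without pair 1 and passed (adjusted p = 0.0361), 0.45 without pair 2 (adjusted p = 0.346) and 0.60 without pair 3 (adjusted p = 0.378). Gbp3 was at 0.30 (SE 0.16) and Gbp7 at 0.56 (SE 0.19), without a call. Gbp7 shares 637 exonic bases with Gm43802 on the same strand, and 8.77% of its 150-base stretches, so its value is uncertain.

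The immunoproteasome subunits Psmb8 and Psmb9, which replace standard subunits and favour peptides that fit class I, were scarce. Psmb8 had 1.32, 3.64 and 1.38 CPM in KO libraries, against 0.331, 1.93 and 1.64 CPM in control libraries. Psmb9 had 0.550, 1.03 and 0.384 CPM in KO libraries, against 0.257, 1.08 and 0.320 CPM in control libraries. Neither was higher in KO in all pairs, and the groups overlapped. In the annotation Psmb8 shares 498 exonic bases with Gm20496, and Psmb9 shares 212 with Tap1.

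B2m and H2-K1 were the most abundant of the set per transcript length. As the mean over 6 libraries, B2m had 74.9 RPKM, H2-K1 21.6 RPKM, Isg15 16.0 RPKM and Ifit2 10.5 RPKM, where RPKM is CPM per kilobase of annotated exon. B2m, the light chain shared by class I molecules, lies at chr2:122147686-122153083 on the plus strand (GRCm38). It had 49.9, 93.2 and 75.5 CPM in KO libraries, against 32.6, 83.0 and 52.4 CPM in control libraries. Every KO library was above its same-numbered control, and the groups overlapped because control library 2 exceeded KO libraries 1 and 3. With the block B2m rose by 0.40 on the log2 scale (SE 0.09, adjusted p = 0.0387, edgeR), and without it the value was 0.35 (SE 0.38, adjusted p = 1.00). Of 9 other blocked fits 6 called it, and it was lost without pair 1 (0.32, adjusted p = 0.0929), without pair 3 (0.35, adjusted p = 0.154) and with the GC correction (0.38, adjusted p = 0.0655).

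The heavy chains were not called. H2-K1 had 56.9, 65.2 and 76.9 CPM in KO libraries, against 47.8, 67.3 and 66.2 CPM in control libraries. Pair 2 was lower in KO and the block log2 fold change was 0.11 (SE 0.07, adjusted p = 0.477, edgeR). H2-D1 had 8.32, 16.3 and 17.8 CPM in KO libraries, against 7.20, 13.1 and 11.9 CPM in control libraries. Each of its KO libraries exceeded the same-numbered control, with 0.35 on the log2 scale (SE 0.13, adjusted p = 0.181, edgeR). In the annotated transcripts H2-K1 shares 0.0% and H2-D1 1.35% of its 150-base stretches with other genes.

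Of 18 tested genes of antigen processing and class I loading, 0 passed the edgeR test with the block, against 3.8% of all genes. An unadjusted p under 0.05 was seen for 2 of the 18, against 18.2% of all genes, and the median log2 fold change was 0.12. H2-Q10 and H2-T24, nonclassical class I genes, were the 2 of 21 listed with groups that did not overlap, against 6.11% of all genes tested. H2-Q10 had 5.02, 5.99 and 3.27 CPM in KO libraries, against 2.98, 2.11 and 2.06 CPM in control libraries, at adjusted p = 0.0652 with the block (edgeR). H2-T24 had 5.86, 7.56 and 6.30 CPM in KO libraries, against 3.71, 5.67 and 3.95 CPM in control libraries, at adjusted p = 0.122 with the block (edgeR). The summed level of the list was 1629, 1631 and 1772 CPM in KO libraries, against 1644, 1628 and 1693 CPM in control libraries, so the groups overlapped. Class II genes, carried mainly by myeloid cells, were low. With the block 0 of 6 tested passed the edgeR test, against 3.8% of all genes. Of the 6, 1 had an unadjusted p under 0.05, against 18.2% of all genes. H2-Aa, a class II chain, had 1.50, 1.03 and 1.04 CPM in KO libraries, against 0.478, 0.630 and 0.213 CPM in control libraries, without overlap and at adjusted p = 0.143 with the block (edgeR). H2-DMb1, which helps load class II, also did not overlap, with 0.293, 0.285 and 0.692 CPM in KO libraries, against 0.147, 0.185 and 0.285 CPM in control libraries. These were 2 of the 7 class II genes listed, where 6.11% of all genes tested had groups without overlap.

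A list of 50 other interferon-stimulated genes lay to the same side as the 34. Of 40 tested, with the block 2 rose and 0 fell, and 19 had an unadjusted p under 0.05. Over all genes 1.57% rose, 2.23% fell and 18.2% had an unadjusted p under 0.05. The median log2 fold change of the list was 0.46, and 29 of the 50 were higher in KO in all 3 pairs, against 23.9% of all genes tested. Slfn5, a nuclear member of the schlafen family, had 6.23, 13.9 and 22.8 CPM in KO libraries, against 3.42, 8.42 and 8.68 CPM in control libraries. It rose by 0.98 on the log2 scale with the block (SE 0.16, adjusted p = 0.0150, edgeR), and of 9 other blocked fits only that without pair 3 did not call it (adjusted p = 0.116). Gbp5, another guanylate-binding protein, linked to inflammasome assembly, had 5.09, 12.9 and 5.30 CPM in KO libraries, against 3.49, 6.86 and 2.99 CPM in control libraries, highest in library 2 of each group unlike the 3 in the set. It rose by 0.74 with the block (SE 0.17, adjusted p = 0.0451, edgeR), and 4 of 9 other blocked fits called it.
Ddx60, Trim34a, Gbp6 and Tgtp1 had groups that did not overlap, all higher in KO and none called. They were 4 of the 50 listed, where 6.11% of all genes tested had groups without overlap in either direction. Trim34a, a member of the TRIM family, had 1.87, 1.28 and 2.58 CPM in KO libraries, against 0.735, 0.667 and 0.960 CPM in control libraries, at adjusted p = 0.0959 with the block (edgeR). Ddx60, an RNA helicase, had 1.83, 2.89 and 1.73 CPM in KO libraries, against 0.735, 1.56 and 1.28 CPM in control libraries, at adjusted p = 0.215 (edgeR). Gbp6 had 3.11, 2.60 and 3.00 CPM in KO libraries, against 1.98, 2.11 and 0.854 CPM in control libraries, at adjusted p = 0.220 (edgeR). Tgtp1, a GTPase below the expression filter, had 0.220, 0.214 and 0.115 CPM in KO libraries, against 0.0367, 0.111 and 0.0711 CPM in control libraries.

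Markers of other cells also moved with the group in the blocked fit. Without the block edgeR called 0 of them, against 0.0% of all genes. There 2 of the 20 endothelial markers had an unadjusted p under 0.05, against 1.72% of all genes. Over all genes with the block, 1.57% rose, 2.23% fell and 18.2% had an unadjusted p under 0.05. With the block 13 of the 20 endothelial markers rose, with KO over control ratios of the summed level of 1.57, 1.50 and 2.46 in pairs 1, 2 and 3. Of the 20 microglia markers 0 passed the edgeR test with the block, 1 had an unadjusted p under 0.05, and the ratios of the summed level were 0.963, 1.01 and 1.16. Astrocyte markers rose in 5 of 13, choroid plexus and ependymal markers in 6 of 11, and pericyte and fibroblast markers in 2 of 14. Neuron markers fell in 5 of 15, and 0 of 13 OPC markers were called by edgeR, 4 of them at an unadjusted p under 0.05. For the summed level of the 34 genes the ratios were 1.16, 1.21 and 1.38 in pairs 1, 2 and 3. Interferon and class I genes are also transcribed in microglia and endothelial cells, and the part of those cells in the calls of Irf7 and B2m was not tested.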

How the data were processed

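The deposited tables hold whole-number read counts per gene symbol for each library, as the authors made them, without normalization. Per the labels' protocols, poly(A) RNA was made into dUTP (strand-marking) libraries and sequenced as read pairs. Tools named in the submitters' processing notes are HISAT2 (2.2.1), HTSeq (0.12.4) and DESeq2 (1.26.0), with the genome build mm10; which step each served, the annotation and the strand setting are not given in those sources.

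CPM, counts relative to the total gene count of the library, was computed leaving out 5 summary entries (no gene, ambiguous, low quality, unaligned, several alignments), which took a mean 20.8%, 1.45%, 3.83%, 1.25% and 3.41% of pairs in KO libraries and 19.7%, 1.46%, 3.11%, 1.03% and 3.46% in control libraries. Genes were tested with edgeR 4.0.16 (R 4.3.3; quasi-likelihood, TMM, group only, two-sided, filterByExpr) and Benjamini-Hochberg adjustment over 15906 genes, with a call at adjusted p under 0.05. Alternatives were the replicate number as a block, other scaling, no filter, DESeq2 1.42.0, limma-voom 3.58.1, GC correction in 20 bins, and each library or pair left out. Deviations from the group means had correlations of 0.693, 0.662 and 0.634 for the libraries numbered 1, 2 and 3. Equal numbers were therefore treated as pairs. The other correlations were negative. Deviations cancel out within each group, so the negative values follow from the positive ones and add no separate ground for pairing. The procedure was tested on simulated data, and the outcome is not given here.

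The genes, lists and tests were chosen with earlier results of these data known. Values are given for genes called with or without the block, for up to 4 per role by mean CPM, and for those whose groups did not overlap. Lists name called and non-overlapping genes, up to 6 by p. Annotation was GENCODE (GRCm38). A gene of the signalling list is not reported here.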

Additional observations from a re-analysis of the deposited data

Results flagged for a closer look

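Read pairs outside the gene counts were more frequent in every KO library than in every control library, in 3 of the 5 summary entries. Pairs in no gene made up at least 20.4% in KO libraries and at most 20.1% in control libraries. Pairs of low alignment quality made up at least 3.60% in KO libraries and at most 3.29% in control libraries. Unaligned pairs made up at least 1.16% in KO libraries and at most 1.14% in control libraries. These pairs are not part of the counts of the interferon and class I genes. Whether pairs from stretches that genes of the set share with other genes were among them was not tested. No test was made on the shares.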

How the results depend on the processing

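Settings other than the test without the block were chosen as alternatives. Those on genes higher in all pairs or highest at number 2 were added after seeing the data. Without the block, DESeq2 called 20 genes in all and 0 of the set, and the other unblocked settings called 0. With the replicate block 604 genes were called (573 with DESeq2 size factors, 502 with library totals, 1034 with no filter, 671 with DESeq2, 712 with limma-voom, 341 with GC correction, and 448, 521 and 174 without pair 1, 2 and 3). Of the set, the block called 2, and 1 with DESeq2 size factors, 1 with library totals, 1 with DESeq2, 3 with no filter, 5 with limma-voom and 0 to 5 with a pair left out. Prrc2b, at -0.41 without the block, passed in every blocked fit, at log2 fold changes of -0.41 (also with DESeq2 size factors, DESeq2 and limma-voom), -0.39 with library totals, -0.42 with no filter, -0.38 with GC correction and -0.47 to -0.35 with a pair left out. Higher in KO in all pairs were 19 of the 34, 18 by TMM, and 22 to 25 over 2 pairs. Highest at number 2 were 22, also by TMM.

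Directions without the block rested on single libraries for the genes listed below, but not for every gene of the set. Of the tested genes, 15 changed sign without KO library 2, and 11 without control library 1. Irf7 (0.37 to 1.06) and B2m (0.074 to 0.77) stayed above 0 whichever library was left out. With the block, 1, 1 and 3 genes of the set changed sign without pair 1, 2 and 3. With 1 library left out, log2 fold changes ran at -0.78 to 1.87 for Ifit1, -0.64 to 1.00 for Ifit2, -0.42 to 1.66 for Ifit3, -0.32 to 1.12 for Isg15, -0.11 to 1.18 for Oasl2, -0.42 to 2.13 for Oas2, -0.086 to 0.33 for Stat2, -0.28 to 1.78 for Usp18, -0.82 to 2.10 for Rsad2, -0.29 to 0.68 for Ifi35, -0.91 to 1.00 for Rtp4, -0.42 to 0.92 for Ifih1, -0.22 to 0.17 for Dhx58, -0.89 to 1.28 for Trim30a, -0.37 to 1.21 for Parp14, -0.25 to 0.74 for Cmpk2, -0.27 to 1.16 for Psmb9, -0.037 to 0.21 for H2-K1 and -1.69 to 1.28 for Ifnb1. With the block and a pair left out they ran at -0.037 to 0.15 for Irf9, -0.25 to 0.33 for Ifi35, -0.024 to 0.30 for Rtp4, -0.0015 to 0.23 for Ifih1, -0.19 to 0.057 for Dhx58 and -0.57 to 0.47 for Ifnb1. Ifnb1 was at -0.091 by limma-voom, and with the block at -0.0046 with no filter, -0.044 by DESeq2 and -0.021 with GC correction. None of these values was called, and the cause was not tested.

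Low counts limit Ifi44, the ligands, Psmb9 and Oas2. Residual degrees of freedom were 4 without the block and 2 with it. They were 3 in unblocked fits with 1 library left out and 1 in blocked fits with a pair left out. Calls gained or lost without a pair therefore rest on 2 pairs and 1 residual degree of freedom, also where the log2 fold change stayed about the same.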
